A study of Bos taurus with 5 samples.

Results

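Transcripts of 7 genes that mark cells of the blood lineage were followed in the wall of the largest (F1) and second-largest (F2) bovine follicles. Most of them were higher in the F2: AIF1, TYROBP and CD14, which macrophages carry, were 3.17-fold to 6.22-fold higher, and CD3E, which T cells carry, rose out of the background in both F2. CYBB, a myeloid gene of the phagocyte oxidase, went against them and was 3.36-fold higher in the F1. ITGB2 and FCER1G did not pass the test. The 7 genes were chosen by name as markers of myeloid cells and T cells, with earlier results of these data known. Each was measured by the single probe that carries its bovine RefSeq mRNA, which made 7 of the 10163 probes on the array and 7 of the 1364 genes that could be named.

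The ovary holds resident and recruited leukocytes. Macrophages are the most common of them in many species, lie mainly in the theca and stroma of a growing follicle, and enter the granulosa layer when a follicle degenerates, where they clear dying cells. T cells, neutrophils and mast cells are also found in the theca and around ovulation. AIF1 is an actin-binding protein of macrophages. CD14 is the surface receptor that hands bacterial endotoxin to its signalling receptor. TYROBP (DAP12) and FCER1G (the common Fc receptor gamma chain) are short membrane adaptors that carry an ITAM motif and signal for receptors on myeloid and natural killer cells. CYBB is the large subunit (gp91phox) of the NADPH oxidase with which phagocytes make superoxide. ITGB2 (CD18) is the beta chain shared by the leukocyte integrins, and CD3E is a chain of the T cell receptor complex.

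The samples were whole follicular walls (theca interna and granulosa cells together) of 3 F1 and 2 F2 from pregnant Japanese Black cows, with the stroma and theca externa dissected away and the tissue snap-frozen. The labels name no treatment and no genetic change. Of the 4 cows, 2 supplied a follicle of each size, so 1 or more of the F2 measured here shared a cow with an F1. Which one is not given in the sources used here, and no such pairing entered the test. Cy3-labelled RNA of each follicle was read on a separate one-color array. The theca and granulosa came mixed in each sample, and fewer cells of a type cannot be told apart from less RNA per cell.

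The probes are shown because each value below rests on the hybridization of 1 oligomer of 60 bases. CYBB and FCER1G are given whole, since they are the members higher in the F1. For the others 30 bases are given. Capitals mark the polyadenylation hexamer AATAAA, searched on the printed strand alone, which lies near the end of many mRNAs and which 8.88% of all probes held. A match describes the letters and no more. All run 5′ to 3′.
CYBB: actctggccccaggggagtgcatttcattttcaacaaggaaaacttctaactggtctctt
FCER1G: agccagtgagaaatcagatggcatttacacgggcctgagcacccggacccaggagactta
AIF1, bases 26 to 55: cagactaacttaAATAAAttatcctccttc
CD3E, bases 31 to 60: tgagaaagaaaagaAATAAAgtgtatttgg
TYROBP, bases 1 to 30: cacacagaggccgtattacaaatgagtcca
CD14, bases 1 to 30: gagagggaagaggaatgaattggctcagat
ITGB2, bases 1 to 30: atgtgtgaacttctcagggtatgaagttac
The share of G and C over the 60 bases was 35% in AIF1 and CD3E, 45% in CYBB and ITGB2, 55% in FCER1G and TYROBP and 60% in CD14, against a median of 43.3% over all probes. The longest run of bases that a member shared with any other probe was 11 to 13.

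Signals are given below as a fraction of the signal of GAPDH on the same array (the median over 100 spots), the scale the study used. That median was 868.7 to 1411.2 intensity units. Between 53.8% and 57.6% of probes per array were well above background by the flag of the scanner software, and the lowest such signal, called the detection limit of the array below, was 0.0124 to 0.0208 of the GAPDH median. Differences are on the log2 scale, F1 minus F2, so that a negative value means higher in the F2. Folds come from these differences of mean log2 values and need not equal the ratio of the mean signals. They were tested with limma over the 5528 probes well above background in every follicle of at least 1 group. Adjusted p-values are by Benjamini-Hochberg over all these probes, and a gene was called below 0.05. The small number of arrays limits the precision, and with 3 F1 and 2 F2 the smallest p that exact permutation allows is 0.1. Except with the normexp background correction used below, the p-values rest on the spread between these follicles, which limma draws toward that of the other tested probes. The SE of a gene thus also depends on which probes were tested. Where the values of a group lie at the floor, or a lone F2 is left, the spread of that group is not measured. The median difference of all tested probes was 0.27, and it moved to 0.05 when each array was scaled to its 75th percentile instead of GAPDH, so differences near these values are no departure from the other probes.

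The labelled tissue was checked against genes listed for its layers. All 6 granulosa genes, CYP19A1, FSHR, AMH, INHA, INHBA and FST, were higher in the F1 (summed signal from 173 to 237 among the F1, against 6.84 and 6.86 for the F2). CYP19A1 cleared the background in 1 F2 but not the other. FSHR was in the background in both F2 and at least 40.3-fold higher in the F1. Both entered the test through the F1 alone. The 6 granulosa genes and CYP17A1 are in a list the study chose on the same arrays, so their direction is not independent evidence. Spots of INHA, INHBA, FST and INSL3 were saturated in 2 or 3 of the F1, which makes the F1 sums lower bounds. Of 5 genes listed for the theca interna, CYP17A1, INSL3 and LHCGR were called higher in the F1. LHCGR was in the background in both F2, entered the test through the F1 alone and was at least 2.18-fold higher there. The paper's background also names LH receptor expression in granulosa cells, so LHCGR does not mark the theca alone. CYP11A1 (0.97, limma adjusted p = 0.0993) and STAR (-1.48, 0.0593) did not pass. The summed signal of these 5 genes ran from 59.5 to 96.4 among the F1, against 19.6 and 30.4 for the F2. Of 4 stromal genes LUM was 3.04-fold higher in the F2, FBN1 did not pass (-1.53, limma adjusted p = 0.0788), and DCN (-0.79, 0.278) and COL1A2 (0.16, 0.752) overlapped. Their sum, most of it DCN, ran from 5.70 to 9.51 among the F1, against 10.1 and 17.1 for the F2. Of the endothelial genes 0 of 3 tested passed with limma (0 also at an unadjusted p under 0.05), CDH5 was well above background on no array, and the sum overlapped between the groups. HBB, the red cell gene on the array, was below 0 in all 5 follicles. The part of these differences in the makeup of the wall in the results below was not tested.

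Of the 7 leukocyte genes, 4 were called higher in the F2 (AIF1, TYROBP, CD14 and CD3E), against 5.08% of all tested probes, and 1 was called higher in the F1 (CYBB), against 6.39%. In either direction 5 of 7 were called, against 11.5% of all tested probes. The genes were chosen with earlier results of these data known, so these shares describe them and are no test of an excess. All 7 had groups that did not overlap, against 49.2% of all tested probes. In 5 of them every F2 lay above every F1, against 15.7%, and in CYBB and FCER1G every F1 lay above every F2. All 7 passed the filter on dim probes, but CD3E did so through the F2 alone, and its call rests on F1 values at or near the floor. Of the 6 members well above background in all 5 follicles, 3 were called higher in the F2, against 3.81% of the probes measured so. The median difference of the 7 genes was -1.66, or -0.77 with CD3E at its bound, beside 0.27 over all tested probes. The calls rested on both F2: without either of them 0 of 7 genes passed with limma. Without F1 replicate 1 there were 3 calls. With normexp background correction only CYBB was called, and with no filter on dim probes (10163 tested) 0 passed with limma. Normexp adds 50 intensity units to each spot, which shrinks differences between dim signals, so it cannot tell a small difference from a dim signal.

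**Figure D1:**
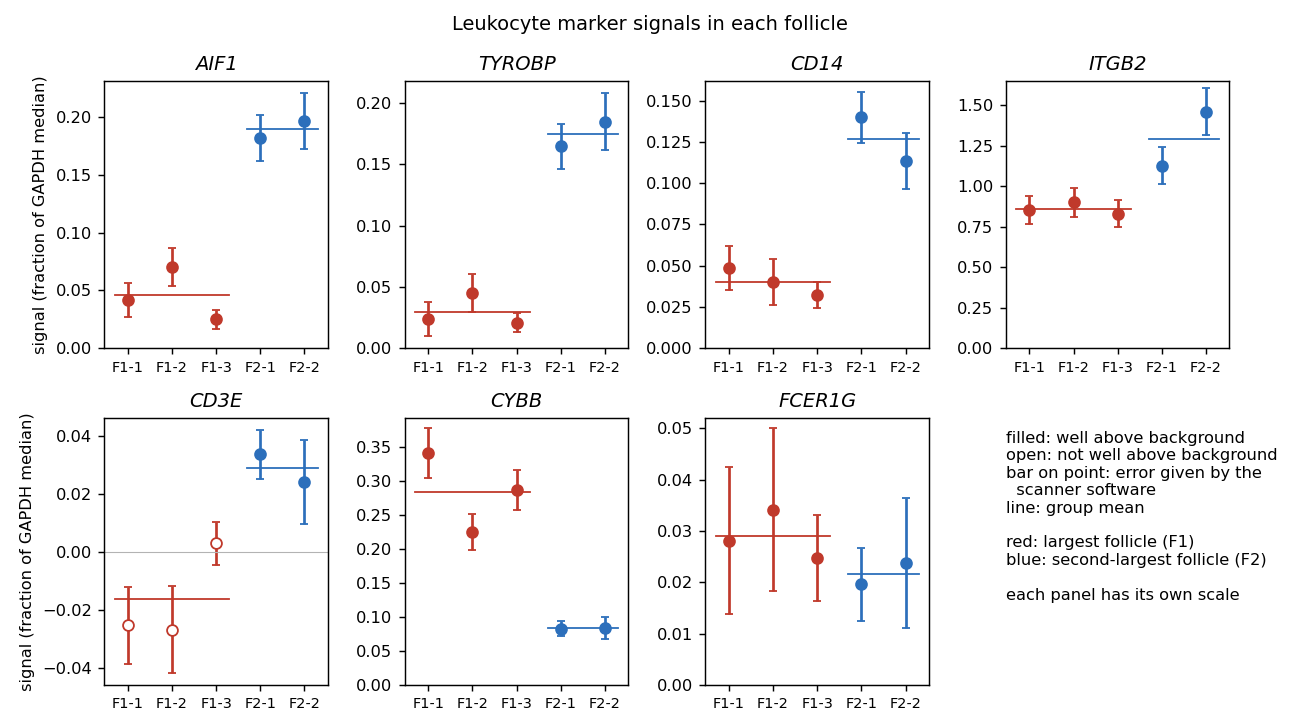
Signal of each of the 7 genes in each follicle (vertical axis, fraction of the GAPDH median of the array; each panel has its own scale), with F1 in red and F2 in blue. Bars are the error that the scanner software gave for the spot, lines are group means, and open points were not well above background; in AIF1, TYROBP, CD14, ITGB2 and CD3E both F2 lie above all F1, and in CYBB and FCER1G both lie below.

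TYROBP had the largest difference among the members measured in both groups. F1 replicates 1, 2 and 3 had signals of 0.0236, 0.0447 and 0.0209, whereas F2 replicates 1 and 2 reached 0.165 and 0.185; this order of the follicles is kept below. Both F2 lay well above the F1, of which replicate 2 was the highest. The F1 mean was 0.0297 ± 0.0131 (SD, n = 3), and the F2 mean was 0.175 ± 0.0142 (SD, n = 2). The difference was -2.64 (SE 0.40, 95% interval -3.59 to -1.68), which is 6.22-fold in favour of the F2 (limma adjusted p = 0.0106). In F1 replicate 1 the signal was only 1.30 times the detection limit of that array. The call was lost without F2 replicate 1 (limma adjusted p = 0.164) or F2 replicate 2 (0.106), where the lone F2 is assumed to vary as the F1 did.

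AIF1 followed the same order of follicles. The F1 gave 0.0416, 0.0700 and 0.0252, and the F2 gave 0.182 and 0.197. The F1 signals were only 2.29, 3.37 and 2.04 times the detection limit. Again F1 replicate 2 was the highest of the F1, and the 2 F2 were close to each other, with a ratio of 1.08 between them against 2.78 between the highest and lowest F1. The means were 0.0456 ± 0.0227 (SD, n = 3) and 0.189 ± 0.0105 (SD, n = 2). AIF1 was 4.52-fold higher in the F2, a log2 difference of -2.18 (SE 0.45, 95% interval -3.27 to -1.08; limma adjusted p = 0.0310). Leaving out F1 replicate 1 ended the call (limma adjusted p = 0.0873), as did leaving out F2 replicate 1 (0.262) or F2 replicate 2 (0.180).

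CD14 differed less. The F1 gave 0.0488, 0.0401 and 0.0322, and the F2 gave 0.140 and 0.113. The F1 signals were only 2.69, 1.93 and 2.60 times the detection limit. The groups were apart, and here F1 replicate 1 was the highest F1 and F2 replicate 1 the higher F2. The means were 0.0403 ± 0.00831 (SD, n = 3) and 0.127 ± 0.0189 (SD, n = 2). CD14 was 3.17-fold higher in the F2, with a difference of -1.66 (SE 0.31, 95% interval -2.40 to -0.93; limma adjusted p = 0.0208). It did not pass without F1 replicate 2 (limma adjusted p = 0.0508), F2 replicate 1 (0.184) or F2 replicate 2 (0.101).

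ITGB2 varied little among the F1, with a ratio of 1.08 between the highest and the lowest. The F1 gave 0.852, 0.899 and 0.831 and the F2 gave 1.13 and 1.46, at least 43.2 times the detection limit. Both F2 lay above all F1, but the 2 F2 differed from each other by more than F2 replicate 1 did from the highest F1. The means were 0.861 ± 0.0348 (SD, n = 3) and 1.29 ± 0.236 (SD, n = 2). ITGB2 was 1.49-fold higher in the F2 with a difference of -0.57 (SE 0.27) and a 95% interval of -1.23 to 0.08 (limma adjusted p = 0.217). ITGB2 passed under quantile normalization alone, where the difference was -0.83 (limma adjusted p = 0.0410).

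CD3E, the single T cell gene among the 7, was in the background in the F1. The processed signals of the F1 were -0.0254, -0.0268 and 0.00292, with none well above background. Those of the F2 were 0.0337 and 0.0242, and both were well above background. The F2 signals were 2.32 and 1.45 times the detection limit, so CD3E was weak also where it was measured. Set against that limit in the F1, the rise of CD3E in the F2 was at least 1.71-fold, before any allowance for the error of the spots. The size beyond this bound is unknown. In F2 replicate 2 the signal was only 1.67 times the error that the scanner software gave. The limma adjusted p was 0.00526. The p comes from F1 values at or near the floor of 0.001 and not from the bound, and CD3E entered the test through the F2 alone. The call was lost without F2 replicate 1 (limma adjusted p = 0.160) or F2 replicate 2 (0.0777), and with normexp correction the difference was -0.22 (0.746).

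CYBB went the other way. The F1 had signals of 0.341, 0.225 and 0.286, and the F2 had 0.0827 and 0.0838. The 2 F2 were almost equal and lay below every F1, and F1 replicate 2, the highest F1 for TYROBP and AIF1, was the lowest for CYBB. All 5 signals were at least 5.03 times the detection limit. The means were 0.284 ± 0.0581 (SD, n = 3) and 0.0833 ± 0.000713 (SD, n = 2). CYBB was 3.36-fold higher in the F1, a difference of 1.75 (SE 0.30, 95% interval 1.04 to 2.46; limma adjusted p = 0.0163). Under normexp limma gave every member the same SE (0.32), so a p there does not reflect the gene's own spread. CYBB was called under every normalization and background correction tried, including normexp (1.13, limma adjusted p = 0.00489). It did not pass without F1 replicate 1 (limma adjusted p = 0.0558), F2 replicate 1 (0.159) or F2 replicate 2 (0.104).

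FCER1G was also higher in every F1, by a small margin. The F1 gave 0.0281, 0.0342 and 0.0248 and the F2 gave 0.0196 and 0.0237. The lowest F1 and the higher F2 were almost equal, and the error that the scanner software gave for each spot, 0.00720 to 0.0160, was larger than that gap. The means were 0.0290 ± 0.00477 (SD, n = 3) and 0.0217 ± 0.00296 (SD, n = 2), and the difference of 0.42 (SE 0.29) had a 95% interval of -0.28 to 1.11 (limma adjusted p = 0.373). Signals were only 1.35 to 2.0 times the detection limit. Relative to the median of all tested probes FCER1G was 0.14 higher in the F1, and under normexp this turned to -0.05. The lower end of its interval, -0.28, lay above the whole interval of TYROBP, the other ITAM adaptor.

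**Figure D2:**
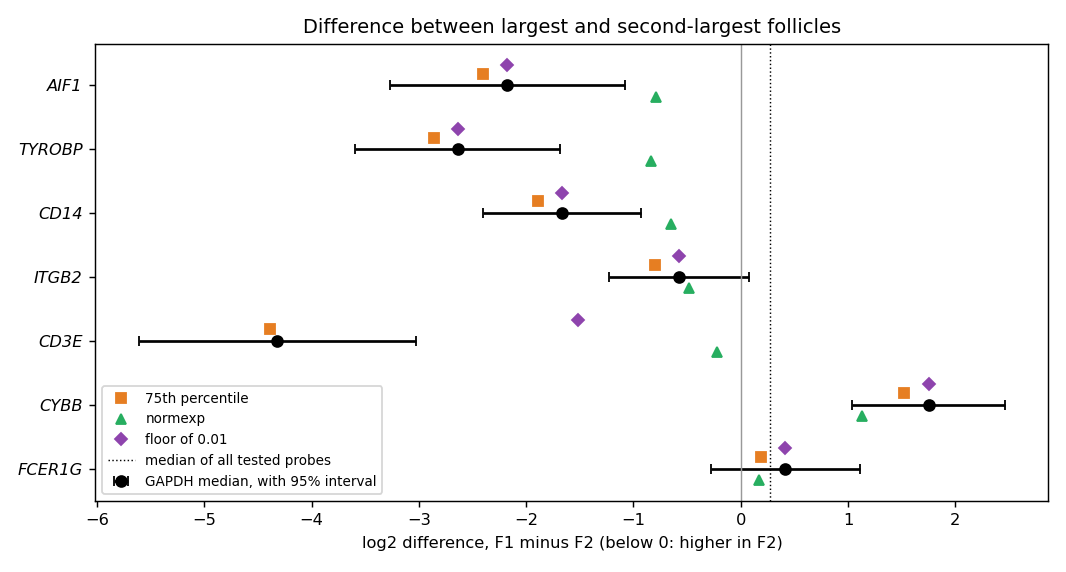
Log2 difference F1 minus F2 of each gene (horizontal axis; below 0 is higher in F2) with the GAPDH scale and its 95% interval in black, and under 75th percentile scaling, normexp background correction and a floor of 0.01 as colored marks. Each gene keeps its side of 0 under all 4 settings; normexp shrinks AIF1 from -2.18 to -0.79, and the dotted line at 0.27 is the median of all tested probes.

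**Figure D3:**
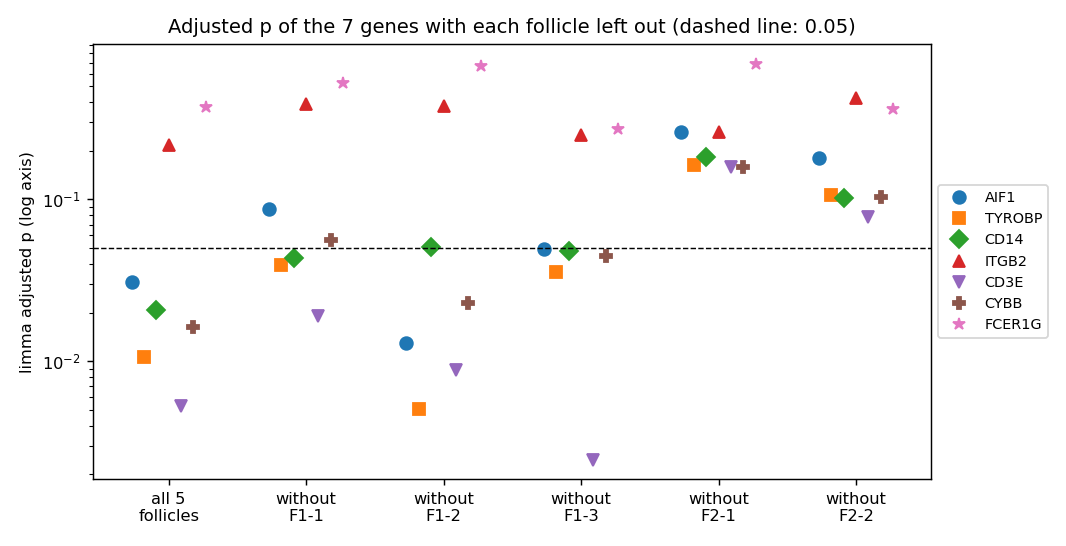
Adjusted p of each gene from limma (vertical log axis) with all 5 follicles and without each one; the dashed line is the threshold of 0.05. All 7 genes lie above the line when either F2 is left out, with AIF1 at 0.262 without F2 replicate 1.

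Ratios between 2 genes within an array do not depend on how the array was scaled, and show how unequally the genes changed. Of 12 ratios computed, 7 set CYBB against another leukocyte gene, and all 7 were higher in the F1. CYBB over RAC2 was 25.4-fold higher in the F1, with RAC2 not well above background in F1 replicate 1. CYBB over TYROBP was 20.9-fold higher in the F1, CYBB over AIF1 15.2-fold, CYBB over CD14 10.6-fold, CYBB over CYBA 7.32-fold, CYBB over ITGB2 5.01-fold and CYBB over NCF1 3.43-fold, each higher in all 3 F1 than in both F2. Each reached the smallest p that the exact two-sided permutation test can give here, 0.1, which is 0.133 after Benjamini-Hochberg adjustment over the 12 ratios. All 7 share the CYBB values. Except for NCF1, the other gene already stood in the opposite order to CYBB, so the lack of overlap was fixed beforehand. These p-values are therefore no evidence beyond that of the single genes. FCER1G over TYROBP, the 2 ITAM adaptors, was 8.30-fold higher in the F1 (exact permutation p = 0.1, adjusted 0.133), and ITGB2 over TYROBP 4.18-fold (0.1, adjusted 0.133). FCER1G and TYROBP also stood in opposite order, so the lack of overlap of their ratio was fixed too. The 3 macrophage genes that were higher in the F2 moved by more similar amounts. AIF1 over TYROBP was 1.38-fold higher in the F1 (exact permutation p = 0.2, adjusted 0.218), CD14 over TYROBP 1.97-fold higher in the F1 (0.2, adjusted 0.218), and AIF1 over CD14 1.43-fold higher in the F2, with overlap (0.4, adjusted 0.400).

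The partners of CYBB in the oxidase were set beside it, since CYBB works only as a complex with CYBA (p22phox) and cytosolic proteins that include NCF1 (p47phox) and RAC2. None of these 3 passed with limma, and 2 of them, CYBA and RAC2, had an unadjusted p under 0.05. CYBA gave 0.217, 0.272 and 0.185 for the F1 against 0.607 and 0.384 for the F2, both F2 above every F1, with a difference of -1.12 that did not pass (limma adjusted p = 0.0838). The F1 and F2 thus stood in opposite order for the 2 membrane subunits. RAC2 gave 0.00581 (not well above background), 0.0442 and 0.0457 for the F1 against 0.149 and 0.199 for the F2, and did not pass (-2.92, limma adjusted p = 0.0934). NCF1, with 1.59, 0.837 and 0.626 for the F1 against 0.922 and 0.996 for the F2, overlapped (-0.03, limma adjusted p = 0.971).

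A wider set of 116 leukocyte genes held 35 with a probe on the array, and 19 could be tested. Of these, 4 were called higher in the F2 and 0 higher in the F1 by limma (0 also at an unadjusted p under 0.05), beside 5.08% and 6.39% of all tested probes. The difference was below 0 in 17 of 19, against 33.9% of all tested probes. In 12 every F2 lay above every F1, against 15.7%, in 0 every F1 lay above every F2, and 7 overlapped. Their median difference was -1.22, the same with genes in the background in the F1 at their bound. For the 12 genes well above background on all 5 arrays the median was -0.81, beside 0.29 over all probes kept by that filter. The others entered the test through the F2 alone, which favours the F2 in these counts. The set was chosen with earlier results of these data known. Leaving out 1 follicle at a time, 2 to 7 genes were called, that is 2 without F2 replicate 2 and 7 without F1 replicate 2.

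Of the 4 called genes, 2 were in the background in all F1 and entered the test through the F2 alone. Their F1 values lay at or next to the floor, so their p-values, also with an F1 left out, reflect that floor and not the bounds given here. MSR1, the macrophage scavenger receptor, rose to 0.0451 and 0.107 in the F2, at least 4.16-fold higher (limma adjusted p = 0.000398). FCGR2B, the inhibitory Fc receptor for IgG, had 0.0499 and 0.0481 in the F2, at least 2.93-fold higher (limma adjusted p = 0.000100). Under normexp neither was called (limma adjusted p = 0.229 and 0.427). S100A12, a calcium-binding protein of neutrophils and monocytes, had 0.164, 0.0944 and 0.0662 for the F1 against 0.701 and 0.459 for the F2, a 5.62-fold rise (limma adjusted p = 0.0194). Without F2 replicate 1 or F2 replicate 2 its limma adjusted p was 0.242 or 0.105. CCL5, a chemokine made by T cells and other cells, had 0.0865, 0.320 and 0.183 for the F1 against 1.03 and 0.780 for the F2, 5.21-fold higher (limma adjusted p = 0.0435). CCL5 lost its call without F1 replicate 1 (limma adjusted p = 0.0636), F1 replicate 3 (0.0954), F2 replicate 1 (0.339) or F2 replicate 2 (0.183). With no filter on dim probes S100A12 (limma adjusted p = 0.139) and CCL5 (0.211) did not pass.

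Of other direct partners, the following did not pass. TLR2, which works with CD14, was in the background in all F1 and gave 0.0621 and 0.0887 in the F2, at least 4.05-fold higher (limma adjusted p = 0.124). The Fc gamma 2 receptor (LOC407171) had 0.0622, -0.00268 and 0.0365 for the F1, of which replicate 2 was not well above background, against 0.354 and 0.150 for the F2 (limma adjusted p = 0.169). This receptor too was chosen by the study on these arrays, so its direction is not independent evidence. TREM1, a receptor that signals through TYROBP, overlapped between the groups (limma adjusted p = 0.559). CD247, the zeta chain beside CD3E in the T cell receptor complex, had 0.113, 0.157 and 0.0672 for the F1 against 0.160 and 0.169 for the F2, with a difference of -0.63 (limma adjusted p = 0.337). ICAM1 and ICAM3, ligands of the ITGB2 integrins, had differences of -0.31 (limma adjusted p = 0.541) and -0.94 (0.145), and ITGAL, a partner chain of ITGB2, was well above background on no array.

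**Figure D4:**
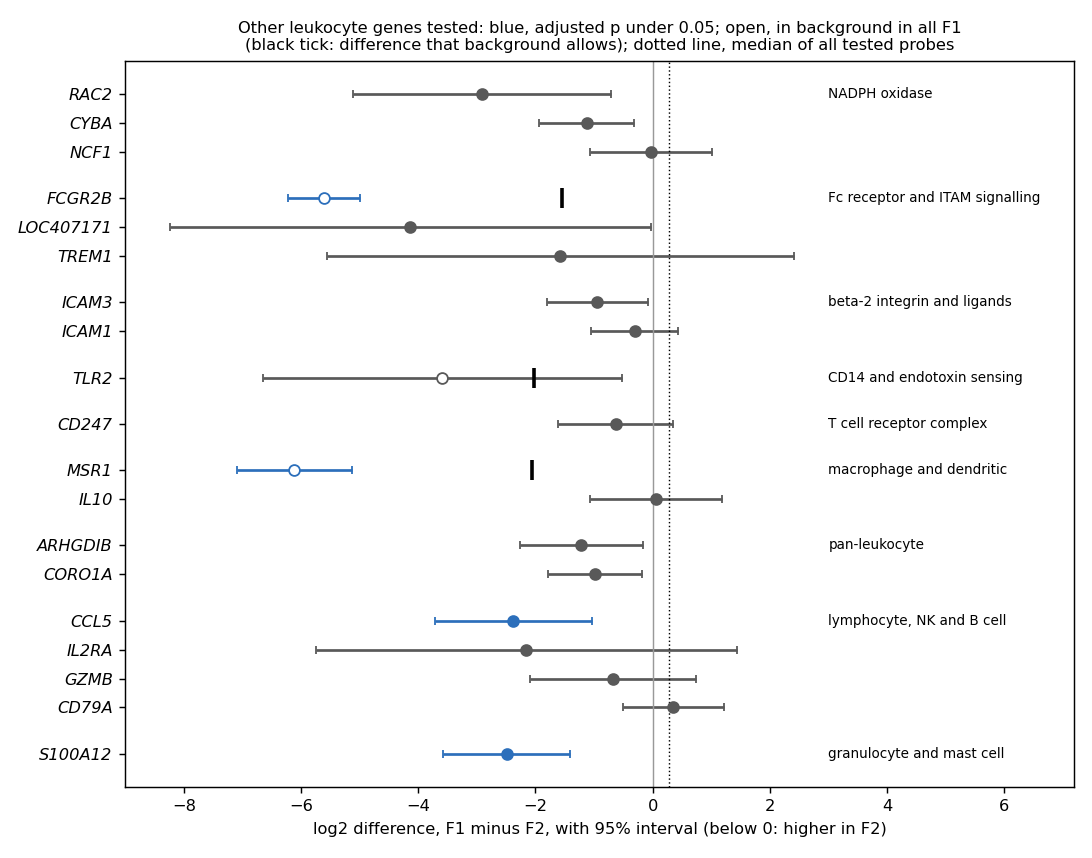
Log2 difference F1 minus F2 with 95% interval (horizontal axis) of the 19 tested genes of the wider set, grouped by role, with genes past the limma threshold in blue, genes in the background in all F1 as open circles and the difference that the background allows as a black tick. The 4 called genes all lie below 0, and 17 of the 19 do, some of which entered the test through the F2 alone. The dotted line at 0.27 is the median of all tested probes.

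Among genes of leukocytes in general, CORO1A and ARHGDIB did not pass, as ITGB2 did not. CORO1A, an actin regulator of blood cells, had a difference of -0.99 (limma adjusted p = 0.110), and ARHGDIB, a regulator of small GTPases in blood cells, had -1.22 (0.127). In both, every F2 lay above every F1. CD79A, a B cell receptor chain, overlapped at 0.35 (limma adjusted p = 0.544), and so did GZMB, a protease of cytotoxic cells (-0.67, 0.478) and IL10 (0.06, 0.942). IL2RA, an interleukin 2 receptor chain, was well above background in 1 F1 and both F2, with 0.0529, 0.00511 and 0.000613 for the F1 against 0.0276 and 0.0301 for the F2, and overlapped (limma adjusted p = 0.372).

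The pattern of each member over the 5 follicles was set against 734 named probes well above background on all arrays, by the root-mean-square difference of log2 values centred on their mean. This is a description over 5 samples. Nearest to CYBB were PEMT (0.110), MX1 (0.112) and ENDOG (0.127). AIF1 was nearest to MDK (0.149), KCNMA1 (0.218) and FUT8 (0.272), and TYROBP to MYO10 (0.200), THBS1 (0.225) and SERPING1 (0.230). Nearest to CD14 were PPP3CA (0.145), CAPG (0.180) and TUBB2B (0.195), to ITGB2 were LTBP2 (0.103), PRKCB (0.110) and HMGB1 (0.112), and to FCER1G were RPL12 (0.0540), FANCC (0.0580) and FNTA (0.0590). Among the members themselves TYROBP ranked 6 of 734 in likeness to AIF1, at 0.288, and CD14 ranked 27. In likeness to CD14, TYROBP ranked only 102, at 0.633. From CYBB the distance to TYROBP was 2.22, rank 719 of 734.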

How the data were processed

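Per the labels and the file headers, total RNA of each follicular wall was amplified, labelled with Cy3 and hybridized to a custom oligonucleotide array, and the authors extracted the spots with Feature Extraction (version 9.5.3.1 in the headers). The deposited scanner files give a processed signal intensity, with background subtracted, a mean and a local background intensity, the error of the signal and flags. The authors also deposited a table of ratios, the processed signal over the median of the GAPDH spots, which differed from the same ratio computed from the scanner files by at most 0.0005. All per-sample columns were matched to a sample.

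Each processed signal was expressed as a fraction of the GAPDH median on its array, raised to a floor of 0.001 where it was lower, and put on the log2 scale. Of 50815 probe values 12494 were at or below 0. Controls and 1 outlier-flagged spot did not enter; saturated spots did. The test kept 5528 of 10163 probes, those flagged well above background throughout the F1, throughout the F2 or both, and used limma 3.58.1 (lmFit, eBayes) under R 4.3.3, checked first on simulated data, with Benjamini-Hochberg adjustment over all of them and no block. Ratios between genes were tested by exact permutation of the follicles under Python 3.11.15, and scipy 1.17.1 gave their Benjamini-Hochberg adjustment. A fold of a gene not well above background in a group is a bound, from the mean log2 value of the bright group against that of the dim arrays. For each dim array the larger of the gene's own signal and the dimmest signal well above background was taken. The bound makes no allowance for the error of the spots.

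Probes carry accessions, and a RefSeq gene table of assembly ARS-UCD2.0 gave a symbol to 1364 of the 1415 that have a RefSeq mRNA; it served for names only. The text names the 7 members, the listed genes past the threshold, direct partners of the members, and for each member well above background on all arrays the 3 probes nearest in pattern. Other listed genes were named after their values were seen. Some genes of the wider lists are not reported here. The members and lists were chosen with earlier results of these data known.

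Alternatives were 75th percentile scaling, quantile normalization, normexp on mean and background intensities (offset 50), the authors' deposited ratios, a floor of 0.01, 2 other filters, a replicate block, an intensity trend and leaving out each follicle.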

Additional observations from a re-analysis of the deposited data

How the results depend on the processing

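No member changed direction under any alternative. With normexp 1 member was called (CYBB), and the differences were -0.79 for AIF1, -0.65 for CD14, -0.22 for CD3E and -0.84 for TYROBP, with limma adjusted p between 0.0616 and 0.746. The normexp offset of 50 units shrinks differences between dim signals, and every member had the same SE there (0.32). With no filter on dim probes 0 members passed with limma, with unchanged differences of -2.18 (AIF1), -1.66 (CD14), -4.32 (CD3E, at the floor), 1.75 (CYBB) and -2.64 (TYROBP) and limma adjusted p between 0.0636 and 0.166. In that setting 3 genes of the wider set passed with limma, among them MSR1 and FCGR2B, whose F1 values lay at or next to the floor. The number called over all probes fell from 634 of 5528 to 214 of 10163. A floor of 0.01 gave 7 calls in the wider set, and the filter on all 5 arrays gave 2, of the 12 genes it kept. Quantile normalization added ITGB2 (-0.83). CD3E gave no value in the authors' deposited ratios or under the filter on all 5 arrays. The causes were not tested.

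Leaving out each follicle in turn gave 0 to 5 called members and 2 to 7 called genes of the wider set. The differences ranged from -2.55 to -1.81 for AIF1, -1.82 to -1.51 for CD14, -4.83 to -4.06 for CD3E (set by the floor, and -1.51 with a floor of 0.01), 1.61 to 1.91 for CYBB, -2.97 to -2.42 for TYROBP, -0.76 to -0.39 for ITGB2 and 0.28 to 0.56 for FCER1G. Over all probes 160 were called without F2 replicate 1, 199 without F2 replicate 2 and 344 without F1 replicate 1.

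With the replicate number as a block, 5 members and 4 genes of the wider set were called and 578 over all probes. The block kept each member on its side of the threshold (AIF1 -1.81, limma adjusted p = 0.0419), and CCL5 lost its call (0.0749). No F2 carries the number of F1 replicate 3, so the differences equal those without that follicle. The block is thus no separate check of their size. The correlations of deviations, 0.039 and 0.13, do not show that the numbers pair follicles.

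Low signal limits CD3E in the F2, FCER1G in all follicles and TYROBP, AIF1 and CD14 in the F1, which lay close to the detection limit.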

Other observations

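Of the 16 wider leukocyte genes that were not tested, 10 were well above background on no array. These were the lymphocyte genes CD28, CD40LG, CD5 and CD69, the cytokines IFNG, IL1B and TNF, the receptors CXCR1 and IL2RG, and the integrin chain ITGAL. The other 6 were well above background on some arrays. FCGR1A, FCGR3A, CXCR4 and CD8A were so on 1 of the 2 F2 and on none of the 3 F1. TLR4, the endotoxin receptor that CD14 serves, was so on 1 F1 and 1 F2, and CTLA4 on 1 F1. The signal of CD8A, which marks cytotoxic T cells, was 0.0559 in F2 replicate 1 and 0.0110 in F2 replicate 2, and that of FCGR1A was 0.0174 and 0.0312. None of the 11 genes listed for class II antigen presentation was matched to a probe by accession, so that group of macrophage genes was not analysed here.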
